A study of Bos taurus with 19 samples.

Results

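Calpain 1 and calpastatin, a protease of skeletal muscle and its inhibitor, were followed in the longissimus dorsi of bull calves. The pair was named by gene identity, with no measured value in the rule: CAPN1 is ENSBTAG00000010230 and CAST is ENSBTAG00000000874, 2 of the 27570 genes listed for each calf. Both identifiers were present in the counts of all 19 calves and both were well expressed. The calves came from Brangus-Angus cows fed low-quality limpograss hay with molasses and urea. The control group (9 calves) had dams on that diet alone, and the methionine group (10 calves) had dams that also received 3.7 g of rumen-protected methionine per head daily, from day -30 to day 90 around the start of breeding. All calves were males sampled at 1 month of age, with 1 poly(A) RNA-seq library per calf. Differences between animals therefore cannot be separated from those of sampling and library preparation. The diet was given to the dams before and during early gestation, and the calves themselves were not treated.

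CAPN1 encodes the large, catalytic subunit of μ-calpain, a cysteine protease that is switched on by calcium and works together with a small regulatory subunit. CAST encodes calpastatin, the endogenous inhibitor that binds calpains through repeated inhibitory domains. In muscle the system takes part in the turnover of myofibrillar and cytoskeletal proteins such as desmin, titin and troponin T, and after slaughter it is known for its part in the tenderization of beef, where calpastatin acts as a brake. The values below are RNA levels and not protein amounts or enzyme activity.

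The total count per calf lay between 49077786 and 88539777, and the number of genes with a count ranged from 15055 to 16863. The 25 most abundant genes took 34.5% to 43.7% of the counts of a calf. Neither member was among those 25. The gene table used here pairs 0 of the 27570 identifiers with a symbol, so the muscle label was not checked against marker genes, and the other calpains, the small subunit, the substrates and markers of other cell types were not analysed here. In whole muscle, fewer cells of a type and less RNA per cell cannot be told apart. In the RefSeq annotation of a later assembly, ARS-UCD2.0, the microRNA gene MIR2407 lies inside CAPN1, and no other gene overlaps CAST. The strand setting of the counting is not given in the sources used here, so reads of overlapping features could not be separated.

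CAPN1, the protease, was measured with 3456 to 8459 counts per calf, so the counting error of a typical calf was 1.28% of its value. Levels are given as TMM CPM, counts-per-million values (CPM) over the retained genes after trimmed-mean scaling (TMM) between libraries. The mean over all calves was 142 ± 23.6 CPM (SD, n = 19). Among the control calves the lowest level was 94.2 CPM, the median 135 and the highest 166. In the methionine calves the lowest level was 132 CPM, the median 152 and the highest 178. The groups overlapped between 132 and 166 CPM. The 4 lowest calves of the study were all control calves, numbers 6, 8, 7 and 2, and the 3 highest were methionine calves 7, 10 and 8. Of the 10 methionine calves, 8 lay above the control median.

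The control group averaged 130 ± 24.2 CPM of CAPN1 (SD, n = 9), against 153 ± 17.5 CPM (SD, n = 10) for the methionine group. The fitted difference was 1.18-fold, or 0.24 on the log2 scale with a standard error of 0.104, and its 95% interval ran from 1.02-fold to 1.37-fold. The unadjusted p of edgeR's quasi-likelihood test was 0.0320. After Benjamini-Hochberg adjustment across the whole table, the adjusted p was 0.994, and the difference did not pass the threshold of 0.05. In the same comparison 0 of the 14518 genes (0%) passed after adjustment with edgeR, and 719 genes, or 4.95%, had an unadjusted p under 0.05. CAPN1 belonged to that set, whose share of the table is close to the threshold itself. By unadjusted p it stood at place 442, and by absolute fold change at place 4114.

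CAST, the inhibitor, was measured with 6454 to 11455 counts per calf, and its counting error was 1.05%. Its mean over all calves was 213 ± 32.3 CPM (SD, n = 19). Among the control calves the lowest level was 151 CPM, the median 201 and the highest 274. In the methionine calves the lowest level was 188 CPM, the median 214 and the highest 287. The groups overlapped between 188 and 274 CPM, and 2 control calves lay below all methionine calves. Control calf 3 had the lowest level of the study, and methionine calf 7 had the highest, followed by control calf 1.

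For CAST the control group averaged 207 ± 36.9 CPM (SD, n = 9), against 219 ± 28.2 CPM (SD, n = 10) for the methionine group. The fitted difference was 1.06-fold, or 0.09 on the log2 scale with a standard error of 0.102. Its 95% interval, from 0.918-fold to 1.23-fold, included no difference. By edgeR's quasi-likelihood test the unadjusted p was 0.402 and the adjusted p 0.994. Of the methionine calves, 7 lay above the control median and 1 above the highest control calf. Without methionine calf 7 the difference in CAST was 0.04 on the log2 scale, without control calf 3 it was also 0.04, and without control calf 1 it was 0.15, none past the threshold.

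**Figure D1:**
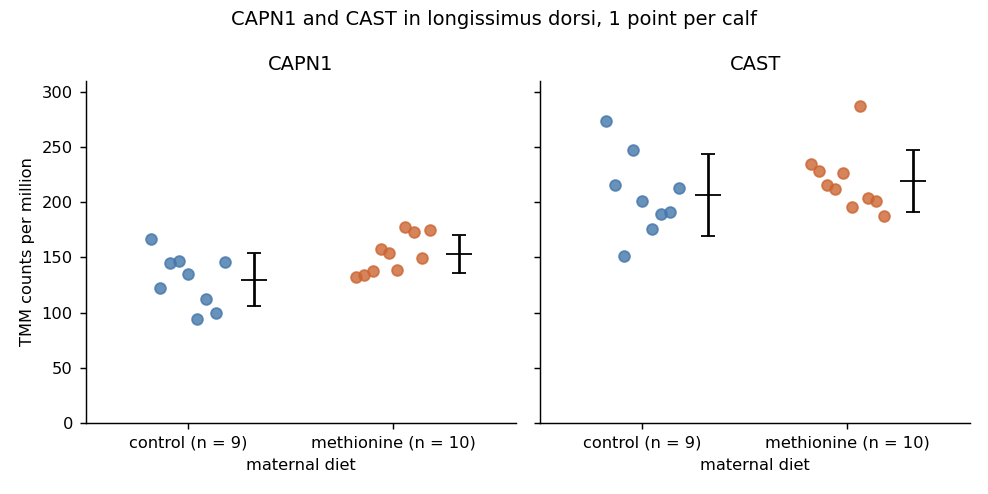
TMM CPM (y axis, from 0) of CAPN1 (left) and CAST (right) by maternal diet, 1 point per calf, with black bars for the mean and SD of each diet. For both genes the control points reach lower, to 94.2 CPM for CAPN1 and 151 for CAST, while no methionine calf lies under 132 and 188, and the groups overlap above those levels.

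DESeq2, run as an alternative, called 7 genes between the diets and had 757 at an unadjusted p under 0.05, while limma-voom called 0 and had 701. Neither CAPN1 nor CAST was called by DESeq2 (adjusted p 0.911 and 0.9998) or by limma-voom (adjusted p 0.967 for both genes). The log2 difference in CAPN1 was positive under every setting tried, between 0.17 and 0.25 over 9 settings and between 0.19 and 0.29 with each calf left out. Its unadjusted p was under 0.05 in 8 of those 9 settings and in 12 of the 19 fits without 1 calf, and its adjusted p was never under 0.349. The log2 difference in CAST was likewise positive, between 0.08 and 0.10 over the 9 settings and between 0.04 and 0.15 with each calf left out, and its unadjusted p was never under 0.135.

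**Figure D2:**
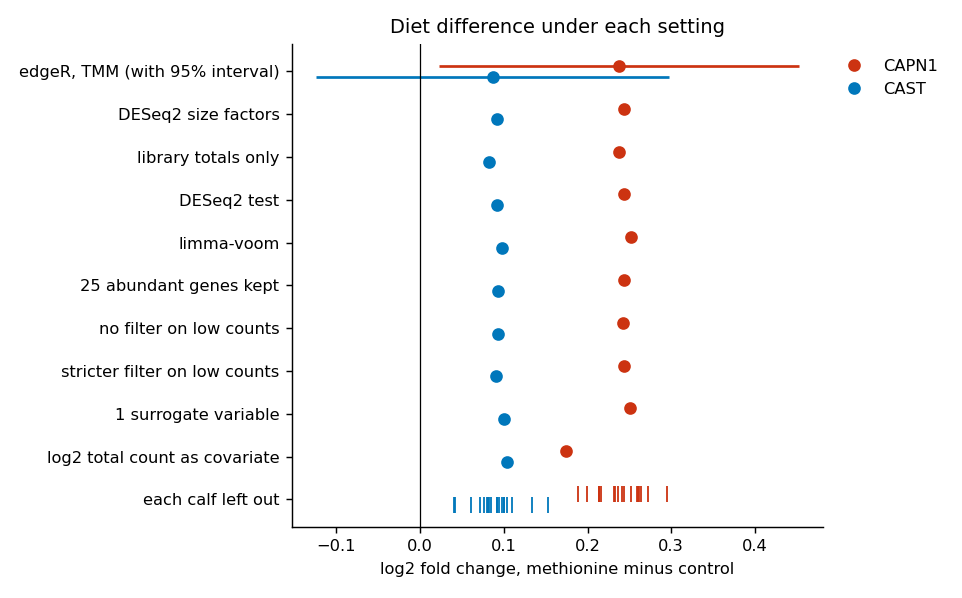
Log2 fold change of CAPN1 and CAST, methionine minus control (x axis), under each processing setting (rows), with the 95% interval for the edgeR fit and 1 tick for each fit without 1 calf. All points lie above 0, and the CAPN1 point nearest to 0, at 0.17, is the fit with the total count of the calf as a covariate.

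The balance of protease and inhibitor was taken as the count of CAPN1 divided by that of CAST in the same calf, a measure in which the scaling between libraries cancels. Reads per gene grow with transcript length, which was not corrected for, so the ratio compares calves and not the amounts of both transcripts. All 19 calves had fewer CAPN1 than CAST counts. In the control calves the lowest ratio was 0.521, the median 0.594 and the highest 0.957. In the methionine calves the lowest ratio was 0.562, the median 0.693 and the highest 0.930. The diets overlapped, and 8 of 10 methionine calves lay above the control median. The ratio varied 1.84-fold between the lowest and the highest calf.

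The calf with the highest ratio of each diet also had the lowest CAST level of its diet. CAST is the denominator of the ratio, so a low CAST level raises the ratio by construction. Control calf 3, at 0.957 (95% exact binomial interval 0.925 to 0.990), had 145 CPM of CAPN1, within the range of its diet, and the lowest CAST level of all calves, 151 CPM. Methionine calf 10, at 0.930 (0.902 to 0.958), combined the second highest CAPN1 level of its diet, 175 CPM, with the lowest CAST level of its diet, 188 CPM. Methionine calf 7, the highest in both genes, had a ratio of 0.620, below the median of its diet. Of the 171 pairs of calves, 136 had counting intervals that did not overlap. Counting error made up 0.952% of the variance of the log2 ratio, whose SD was 0.253 between calves against 0.0246 from counting alone. These intervals cover counting error only.

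**Figure D3:**
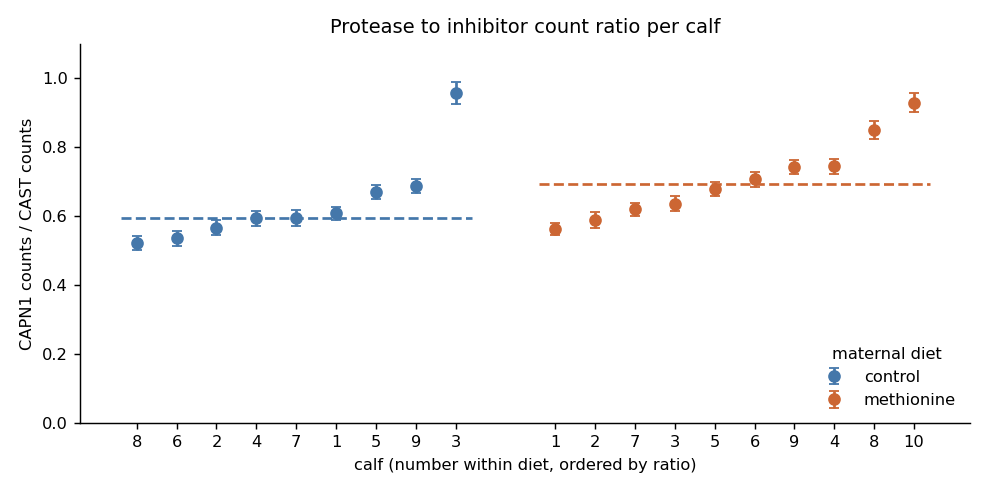
Ratio of CAPN1 to CAST counts (y axis, from 0) for each calf, ordered by ratio within each maternal diet, with 95% exact binomial counting intervals and a dashed line at the median of each diet. Control calf 3 stands at 0.957, apart from the other control calves, of which the next is at 0.687.

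The log2 ratio averaged -0.67 ± 0.26 for the control group (SD, n = 9) and -0.52 ± 0.23 for the methionine group (SD, n = 10). The difference of 0.16 on the log2 scale, 1.11-fold, did not pass the threshold (p = 0.189, two-sided exact permutation test over all divisions into 9 and 10). The 95% interval obtained by inverting that test ran from 0.943-fold to 1.31-fold. Without control calf 3 the difference was 0.23 on the log2 scale (two-sided exact permutation test, p = 0.0235), and without any other single calf it was between 0.11 and 0.19 with a p of 0.114 or more in the same exact test. Of the fits without 1 calf, only that without control calf 3 had a p under 0.05. This calf had the highest ratio of its diet, so singling out its removal picks by the measured outcome.

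Over all calves, the ratio and the CAPN1 level were higher in deeper libraries, past the adjusted threshold for Spearman's rho but not for Pearson's r. The ratio contains CAPN1, so both relations are not separate. In the family of 9 relations, CAPN1, CAST and the log2 ratio were each set against the log2 total count, the share of the 25 most abundant genes and the number of genes with a count. Over the 19 calves, CAPN1 correlated with the total count at r = 0.506 (permutation p = 0.0261, adjusted p = 0.0783) and rho = 0.556 (permutation p = 0.0145, adjusted p = 0.0434). Without the 2 calves of most extreme depth r was 0.679. Within the diets r was 0.386 for the control group (exact permutation p = 0.298) and 0.430 for the methionine group (permutation p = 0.226). For CAST the same relation had r = -0.0336 (permutation p = 0.892) and rho = -0.0579 (permutation p = 0.816).

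For the log2 ratio, the relation with the total count had r = 0.539 (permutation p = 0.0165, adjusted p = 0.0744) and rho = 0.614 (permutation p = 0.00562, adjusted p = 0.0253), with r = 0.525 without the 2 extreme calves. Within diets r was 0.473 for the control group (exact permutation p = 0.199) and 0.491 for the methionine group (permutation p = 0.152). The number of genes with a count gave r = 0.594 (permutation p = 0.00713, adjusted p = 0.0642) and rho = 0.702 (permutation p = 0.00120, adjusted p = 0.0108) with the log2 ratio, and r = 0.590 without the 2 calves farthest from the median. Within diets, leaving out the 2 calves farthest from the median moved r of this second relation from 0.640 to 0.190 for control. For methionine it moved from 0.487 to -0.00668. Leaving them out also narrows the range of the number of genes, with 7 control and 8 methionine calves left. The cause of the fall was not tested. The other 5 relations, all with the number of genes or the abundant share, had adjusted p of 0.141 or more for either coefficient. The total count itself was higher in the methionine group by 8088510 on average, a difference that did not pass its test (p = 0.122, two-sided exact permutation test).

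With the log2 total count as a covariate, a setting added after the data were seen, the CAPN1 difference was 0.17 on the log2 scale with an unadjusted p of 0.118. The CAST difference was 0.10. The difference in the log2 ratio at equal total count was 0.0661 (exact permutation of diet labels on the residuals, p = 0.540). Beyond this, the part of depth in the diet differences was not tested.

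Whether protease and inhibitor varied together was examined on log2 TMM CPM, since the study asks whether coexpression in calf muscle differs between maternal diets. Over the 19 calves Pearson's r of CAPN1 with CAST was 0.433 (permutation p = 0.0642) and Spearman's rho 0.323 (permutation p = 0.177), and r was 0.293 without the 2 calves of most extreme CAPN1 level. The relation did not pass the threshold. In the control calves r was 0.514 (exact permutation p = 0.158) and rho 0.667 (exact permutation p = 0.0589). In the methionine calves r was 0.0739 (permutation p = 0.855) and rho -0.224 (permutation p = 0.537). Adjusted over these 3 sets of calves, p was 0.193, 0.238 and 0.855 for r by permutation.

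The difference between the diets in Fisher's z of r, methionine minus control, was -0.494 and did not pass its own test (two-sided exact permutation of diet labels, p = 0.495). Control calf 3, which had the lowest CAST level beside a CAPN1 level near the mean of all calves, moved these values most. Without it r over the remaining calves was 0.544 (permutation p = 0.0200), and the difference in z was -1.34 (exact permutation p = 0.0521). Without methionine calf 7, highest in both genes, r was 0.328 (permutation p = 0.184) and the difference in z -1.28 (exact permutation p = 0.104). Without control calf 1 the difference in z was -0.220 (exact permutation p = 0.767), and without methionine calf 10 it was -0.239 (exact permutation p = 0.784). Both levels carry the scaling factor of their library, and with library totals alone in place of TMM r was 0.346 (permutation p = 0.147).

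**Figure D4:**
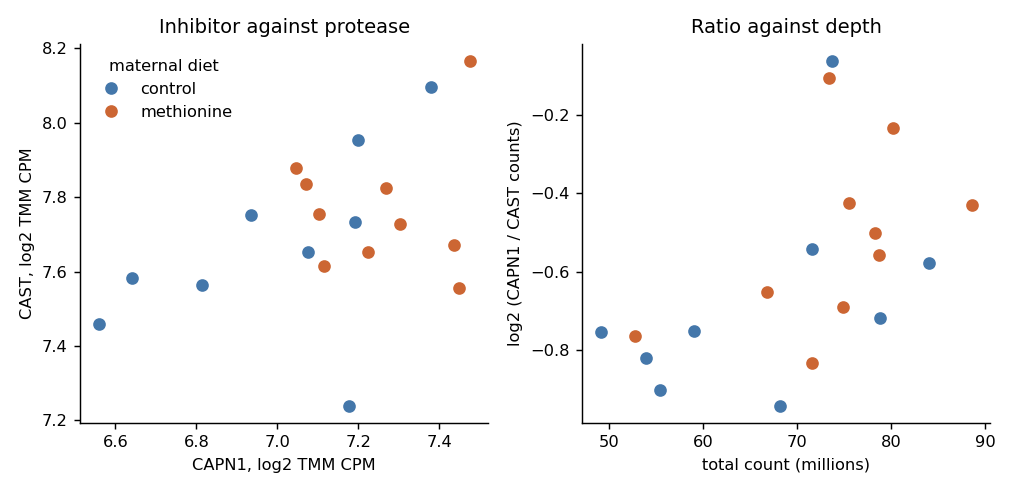
Left, CAST against CAPN1 in log2 TMM CPM; right, the log2 ratio of CAPN1 to CAST counts against the total count; 1 point per calf, coloured by maternal diet. In the left panel r is 0.0739 for methionine and 0.514 for control, a difference that did not pass its exact permutation test (p = 0.495). In the right panel the ratios tend to be higher in the deeper libraries. With the log2 total count, r is 0.539 (permutation p = 0.0165, adjusted p = 0.0744).

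Of the other 14517 tested genes, 1173 (8.08%) had a higher r with CAPN1 than CAST did, and 853 (5.88%) had a higher r with CAST than CAPN1 did. The r of 0.433 between both members lay below the 95th percentile of each set of coefficients, 0.499 with CAPN1 and 0.453 with CAST. The coefficients with CAPN1 had a median of 0.000647 and ranged from -0.885 to 0.833. Those with CAST had a median of -0.0369 and ranged from -0.865 to 0.819. These coefficients are descriptions over the same 19 calves and carry no p.

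The 5 genes most like CAPN1 were ENSBTAG00000040338, ENSBTAG00000022242, ENSBTAG00000012988, ENSBTAG00000011488 and ENSBTAG00000009107, with r from 0.833 down to 0.794. They were picked by r over these same calves, so a high r within a diet follows in part from the choice. In the control calves alone their r lay between 0.832 and 0.943. In the methionine calves alone r ranged from 0.176 for ENSBTAG00000012988 to 0.777 for ENSBTAG00000040338. CAPN1 itself varied less in those calves (SD of log2 CPM 0.164, against 0.278 for control). The difference in r between the diets was not tested for these genes. The 5 genes most like CAST were ENSBTAG00000002323, ENSBTAG00000012687, ENSBTAG00000000111, ENSBTAG00000006765 and ENSBTAG00000013078, with r from 0.819 down to 0.783. Their r, which carries the same limit of choice, lay between 0.799 and 0.889 for control and between 0.731 and 0.852 for methionine. No gene was in both sets of 5, and none of the 10 had an adjusted p under 0.994 between the diets by edgeR. The gene table gives no symbols for them.

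The spread between calves was below the median of all tested genes for both members. The SD of log2 TMM CPM over the 19 calves was 0.254 for CAPN1 and 0.216 for CAST, against a median of 0.401 over all tested genes. By this SD, CAPN1 stood at percentile 22.6 and CAST at percentile 13.4. Genes with few counts have a larger SD on this scale, and both members had many reads (percentiles 91.3 and 94.4 of mean CPM, which is not corrected for transcript length). Whether their spread is small for genes of a like level was not tested. The between-calf coefficient of variation was 16.6% for CAPN1 and 15.2% for CAST, against 1.28% and 1.05% from counting alone.

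**Figure D5:**
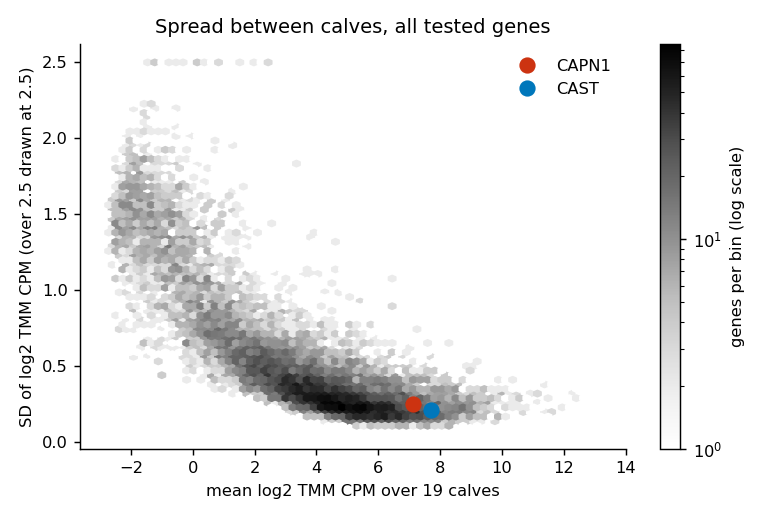
SD of log2 TMM CPM between the 19 calves (y axis) against mean log2 TMM CPM (x axis) for all tested genes, shaded by the number of genes per bin on a log scale, with CAPN1 and CAST marked. Both lie at high expression, at SDs of 0.254 and 0.216, under the median of 0.401 over all tested genes of any level.

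Within diets, the SD of log2 CPM for CAPN1 was 0.278 (control) and 0.164 (methionine), and for CAST 0.255 and 0.174. The mean absolute deviation of CAPN1 from the diet median was 0.222 for control and 0.137 for methionine. That difference was not past the threshold (two-sided exact permutation test, p = 0.132, adjusted p = 0.395 over 3 measures). For CAST the deviations were 0.188 and 0.124 (two-sided exact permutation test, p = 0.313, adjusted p = 0.469), and for the log2 ratio 0.168 and 0.180 (two-sided exact permutation test, p = 0.893, adjusted p = 0.893). Without control calf 5, which lies at the control median of CAPN1, the CAPN1 difference in deviation, -0.085 with all calves, was -0.113 (exact permutation p = 0.0296). Without control calf 6 it was -0.0482 (exact permutation p = 0.393), and without control calf 8 it was -0.0585 (exact permutation p = 0.374).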

How the data were processed

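The authors trimmed reads with Trim Galore 0.4.4, aligned them with Hisat2 2.1.0 to ARS-UCD1.2 and ran htseq-count with intersection-nonempty, and the deposited values are raw counts per gene. The GTF release is not given in the sources used here. Calves were grouped by the treatment label and numbered within diets in accession order. After the study's description, 2 filters were applied: the 25 genes with the most counts on average were dropped, as was any gene whose count was 5 or less in 9 or more calves, which left 14518. The number the study retained is different. It does not list its abundant genes, and the cause of the gap was not tested. Library sizes were recomputed, and log2 CPM used a prior count of 2.

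Diets were compared in R 4.3.3 with edgeR 4.0.16 (quasi-likelihood, all 19 calves, no covariate), a standard error being the absolute log2 fold change divided by the square root of F. Alternatives used DESeq2 1.42.0, limma 3.58.1, sva 3.50.0 and the settings listed in the closing section. Permutation tests ran in Python 3.11.15 (numpy 2.4.6, scipy 1.17.1, pandas 2.3.3), exact over diet labels and for 9 or fewer calves in a correlation, otherwise with 100000 draws. For spread, values were first centred on the median of their diet, and for the difference in Fisher's z on its mean. In these tests, and in that on residuals at equal total count, exact means that every division of the calves was used. Their p is approximate. Plots used matplotlib 3.10.9. The scripts were tested on simulated data. The rule for the members uses gene identity alone, but the members and lists were chosen with earlier results of these data known. Named genes were both members and, for each, the 5 genes of highest r over the calves. A setting without the calf of highest ratio in each diet was also run and its results seen. It was dropped, since it picks calves by the measured outcome. Planned lists of related genes and cell type markers were left out for want of symbols.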

Additional observations from a re-analysis of the deposited data

Results flagged for a closer look

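Among 12 groups of 9 or 10 calves (both levels, the log2 ratio, the total count, the abundant share and the number of genes with a count, by diet), 2 held a calf far from the others, where chance gives about 0.6 for independent groups. Levels and ratio share calves and are not independent.

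Methionine calf 7 had 287 CPM of CAST, against 188 to 235 in the other methionine calves. Its gap to the nearest calf was 0.524 of the range of the group, above the critical value of 0.466. This calf also had the highest CAPN1 level, 178 CPM.

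Control calf 3 had a log2 ratio of CAPN1 to CAST of -0.0633, against -0.94 to -0.54 in the other control calves. Its gap was 0.545 of the range, above the critical value of 0.493. Its total count of 73695162 and its 16327 genes with a count lay within the range of its diet. The cause was not tested for either calf.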

How the results depend on the processing

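The settings tried for expression were DESeq2's size factors, library totals alone, DESeq2's own test, limma-voom, the abundant genes kept, no filter or a stricter filter on low counts, 1 surrogate variable, the total count as a covariate (added after the data were seen) and each calf left out. Under all of them the CAPN1 and CAST differences kept their sign and stayed short of the adjusted threshold. The number of genes called was 7 with DESeq2's test, 0 or 1 with each calf left out (1 without control calf 1) and 0 otherwise. Genes at an unadjusted p under 0.05 by edgeR numbered 719 of 14518 (4.95%). Without the low-count filter they numbered 2488, also a larger share, in a table drawn from the 20726 genes with a count in any calf.

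The ratio difference ran from 0.109 to 0.231 with each calf left out, and from 0.0661 to 0.223 on the log2 scale with medians or at equal total count. The correlation of CAPN1 with CAST, 0.433, was 0.460 (permutation p = 0.0471) with DESeq2's size factors, 0.473 (permutation p = 0.0406) with the abundant genes kept, and from 0.328 to 0.544 with each calf left out, past 0.05 without control calf 3 or methionine calf 8 or 10. The difference in CAPN1 spread ran from -0.113 to -0.0482 with each calf left out. The difference in ratio spread, 0.0119, turned negative as a log2 ratio of SDs, -0.199, and in 7 of 19 fits without 1 calf, with a range from -0.0183 to 0.0769. The cause of these changes was not tested.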

Other observations

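The study kept genes of high variance for its network, built on the control calves. Over all 19 calves, both members fall in the less variable part on log2 TMM CPM, at percentiles 22.6 (CAPN1) and 13.4 (CAST) of the SD. On linear TMM CPM the same genes stand at percentiles 90.03 and 92.9 of the variance. Their place in such a filter therefore differs with the scale on which variance is taken. The study supplies network properties for the genes it evaluated, and whether both members are among them is not reported here.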
